A study of Saccharomyces cerevisiae with 6 samples.

Results

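Translation factors are the proteins that load, move and release the ribosome on a messenger RNA without being part of the ribosome. The transcripts described here are 47 genes of cytosolic initiation, elongation, termination and ribosome rescue in the budding yeast Saccharomyces cerevisiae, listed by name and matched to the array through the gene symbol of each probe. Of the 47 genes, 44 had a probe, among 5379 genes with a named probe in all, and each of the 44 had a single probe. EFT1, EAP1 and GCN1 were not analysed here. The cells were S288C, a laboratory strain that supplied the reference genome of the species, and grew in the rich medium YPD at 25 °C in exponential phase. One culture was exposed to 1.8 mM formaldehyde for 2 h and the control culture was grown for a further 2 h untreated. Poly(A) RNA of the treated culture (Cy5) and of the control (Cy3) shared one 2-colour array, and 3 arrays came from 3 independent biological samples. Scans at a high and a low laser power of each array gave 6 scans, and the 2 scans of an array counted as 1 replicate.

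Initiation begins when eIF2 brings the initiator tRNA to the small ribosomal subunit, with eIF3 as the scaffold and eIF1, eIF1A and eIF5 choosing the start codon. The eIF4 group binds the cap of the messenger RNA and unwinds its leader, and eIF2B recharges eIF2 with GTP, a step that the kinase Gcn2 slows when amino acids run short. Elongation factors then deliver aminoacyl-tRNAs and move the ribosome, and release factors free the finished protein. In growing yeast the elongation factors and several initiation factors are among the most abundant proteins, and their genes are known to be expressed in step with growth rate and with ribosomal protein genes.

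All values are log2 ratios of treated over control, averaged over the scans of an array. That direction is likely rather than settled, because the labels place the treated sample in channel 1 (Cy5) but do not state how the ratio was formed; were it inverted, each lower value below would be a higher one. No dye swap was made, so dye and treatment cannot be told apart. A lower ratio is a smaller share of the labelled poly(A) RNA, so fewer copies of a transcript and a change in the total cannot be told apart.

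Transcripts of translation factors were lower in the formaldehyde-treated cells across nearly every step of translation. Of the 44 genes with a probe, 21 had a value on all 3 arrays and entered the test, limma's moderated test of the mean log2 ratio against 0 over all 2133 such genes with Benjamini-Hochberg adjustment. At adjusted p under 0.05, 18 of the 21 fell, none rose, and CAM1, HYP2 and GCD1 did not pass. Among all tested genes, 25.3% were lower and 37.2% were higher at that threshold. At an unadjusted p under 0.05 the same limma fit gave the same 18 factors lower and 0 higher, so this count adds no separate support. The matching shares of all tested genes were not computed. At least 2-fold falls were called for 16 of the 21 factors, against 15.7% of all tested genes, and at least 4-fold falls for 8, against 7.03%. All 18 called factors were below 0 on every array, an outcome that calling them on those same arrays favours. The share of all genes called lower that did so was not computed. The median log2 ratio of the 21 was -1.31, and that of all tested genes was 0.18, a gap of -1.49. On arrays 1, 2 and 3 the medians of the 21 were -1.16, -1.44 and -1.51, beside 0.05, 0.21 and 0.31 for all tested genes. The median SD of a factor over the arrays was 0.25, and that of all tested genes was 0.29.

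A further 18 factors had a value on 1 or 2 arrays, and 5 (GCD2, GCD6, TIF4632, RLI1 and DOM34) had none. All 18 had a mean below 0, as did 1425 of all 2546 genes measured on 1 or 2 arrays. The median was -1.50 for the 18 factors and -0.15 for the 2546 genes. When 2 arrays sufficed for the test, 28 of 34 factors were lower and none higher, beside 24.7% lower and 30.3% higher among 3307 genes. The adjusted p-values given below for genes with 2 arrays come from that limma fit. They are not on the scale of the fit over genes with 3 arrays. For YEF3, with the same values, the limma adjusted p was 1.16e-05 in the 3-array fit and 6.57e-08 in the other. For SUI2 it was 0.0105 and 0.0164. A smaller p for a gene with 2 arrays is therefore not stronger evidence than a larger p for a gene with 3.

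**Figure D1:**
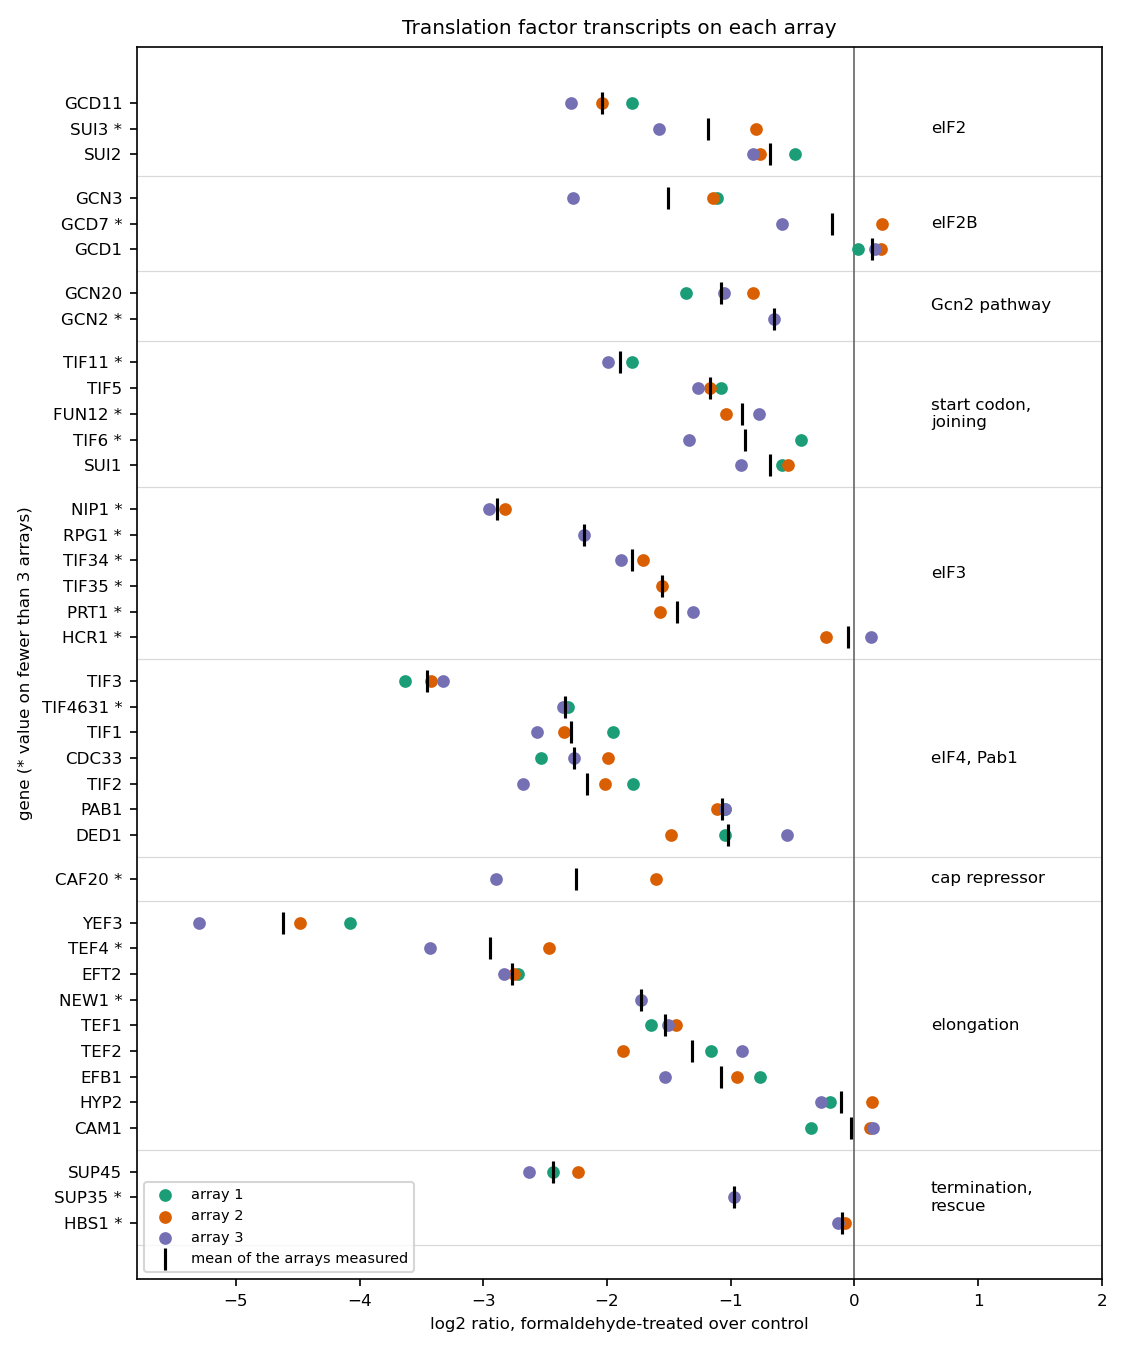
Log2 ratio of treated over control (horizontal axis) for the 39 measured translation factors, grouped by role; each point is one array, the black tick is the mean, and an asterisk marks a gene with a value on fewer than 3 arrays. YEF3 lies farthest to the left, below -4 on every array, and CAM1, HYP2, GCD1, GCD7 and HCR1 are the genes with points on both sides of 0 or only above it.

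Of the 21 tested factors, those of elongation held both the largest fall (YEF3) and the means closest to 0 (CAM1 and HYP2). YEF3 (YLR249W) encodes eEF3, the ATPase that fungi need for release of the spent tRNA. Its log2 ratios were -4.08, -4.48 and -5.30 on arrays 1, 2 and 3. YEF3 was thus far below 0 on each array and lowest on array 3; it fell by 4.62 ± 0.62 (SD, n = 3), to 4.07% of the control (limma adjusted p = 1.16e-05), and only 3 of the 2133 tested genes had a lower mean. NEW1, a relative of eEF3, had one value, -1.73 on array 3. HEF3, the paralog of YEF3, had values of 0.22 and 1.08 on arrays 2 and 3 and did not pass (0.65 ± 0.60, SD, n = 2; limma adjusted p = 0.084). YEF3 minus HEF3 was -4.71 and -6.37 on those arrays. The difference between the paralogs was not tested.

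EFT2 (YDR385W) encodes eEF2, which moves the ribosome by one codon. Its copy EFT1 encodes the same protein, so the EFT2 probe may read transcripts of both. EFT2 had log2 ratios of -2.72, -2.75 and -2.83. The arrays thus lay close together, and EFT2 fell by 2.77 ± 0.06 (SD, n = 3), to 14.7% of the control (limma adjusted p = 1.37e-05). The array 3 value came from the low power scan alone. The scans of arrays 1 and 2 differed by 0.18 and 0.33, low power being the lower, so that SD is narrower than the scan gaps. TEF1 and TEF2 both encode eEF1A, the carrier of aminoacyl-tRNA, and are so alike in sequence that cDNA of one may bind the probe of the other. TEF1 (YPR080W) had -1.64, -1.44 and -1.51, and TEF2 (YBR118W) had -1.16, -1.87 and -0.91. All 6 values were below 0; TEF1 fell by 1.53 ± 0.10 and TEF2 fell by 1.31 ± 0.50 (SD, n = 3; limma adjusted p = 0.000211 and 0.0019). TEF1 minus TEF2 was -0.48, 0.43 and -0.60, so neither copy was lower on all arrays.

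The exchange factor eEF1B reloads eEF1A with GTP, and its subunits spanned a wide range. The catalytic subunit EFB1 (YAL003W) had log2 ratios of -0.77, -0.95 and -1.53 and fell by 1.08 ± 0.40 (SD, n = 3; limma adjusted p = 0.003). The gamma subunit has 2 genes. TEF4 (YKL081W) was low on both arrays that measured it, at -2.47 and -3.43 on arrays 2 and 3, and fell by 2.95 ± 0.68 (SD, n = 2; limma adjusted p = 1.14e-05). CAM1 (YPL048W) was near 0, at -0.35, 0.13 and 0.15, with a mean of -0.02 ± 0.28 (SD, n = 3; limma adjusted p = 0.923; 95% confidence interval -0.45 to 0.41). The sign of that mean was not stable: it was 0.14 without array 1. TEF4 minus CAM1 was -2.59 and -3.58 on arrays 2 and 3, gaps wider than the SD of either gene; the difference was not tested.

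HYP2 (YEL034W) encodes eIF5A, the elongation factor that eases ribosomes past difficult peptide bonds and that carries the modified residue hypusine. HYP2 had log2 ratios of -0.20, 0.14 and -0.27, on both sides of 0, and a mean of -0.11 ± 0.22 (SD, n = 3; limma adjusted p = 0.61; 95% confidence interval -0.52 to 0.30). Changes within that interval are not distinguished from 0 with 3 arrays. ANB1, the hypoxic copy of eIF5A and close to HYP2 in sequence, had -0.13, -0.04 and -0.17 and did not pass (limma adjusted p = 0.568). Because of that likeness, the probes of HYP2 and ANB1 may not be independent. The enzymes that make hypusine had lower values: DYS1, deoxyhypusine synthase, fell by 1.50 ± 0.14 (SD, n = 3; limma adjusted p = 0.000246), and LIA1, deoxyhypusine hydroxylase, had one value, -3.30 on array 3. HEF3, ANB1, LIA1 and DBP1 (below) were picked for naming after their values were seen.

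The eIF4 group, taken here together with PAB1 and the helicase DED1, was lower throughout. Its median was -2.27 over its 7 measured genes, and all 6 tested genes were called. TIF3 (YPR163C) encodes eIF4B, which assists the helicase eIF4A. It had log2 ratios of -3.63, -3.42 and -3.32, the lowest of any initiation factor on arrays 1, 2 and 3 alike, and fell by 3.46 ± 0.16 (SD, n = 3), to 9.10% of the control (limma adjusted p = 1.02e-05). CDC33 (YOL139C) encodes the cap-binding protein eIF4E; its values of -2.54, -1.99 and -2.27 were all well below 0 and it fell by 2.27 ± 0.27 (SD, n = 3; limma adjusted p = 5.57e-05). TIF4631 encodes the scaffold eIF4G1. It was measured on arrays 1 and 3, where its values of -2.32 and -2.35 nearly coincided, and fell by 2.34 ± 0.03 (SD, n = 2; limma adjusted p = 2.56e-05).

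TIF1 and TIF2 encode the same protein, eIF4A, so that their probes may not be independent. TIF1 (YKR059W) had -1.95, -2.35 and -2.57, and TIF2 (YJL138C) had -1.79, -2.02 and -2.68. Both were lowest on array 3 and least low on array 1; TIF1 fell by 2.29 ± 0.31 and TIF2 fell by 2.16 ± 0.46 (SD, n = 3; limma adjusted p = 5.96e-05 and 0.000155). PAB1 (YER165W), the poly(A)-binding protein that joins the message's tail to eIF4G, had values of -1.05, -1.11 and -1.05 and fell by 1.07 ± 0.04 (SD, n = 3; limma adjusted p = 0.00105). TIF3 minus PAB1 was -2.59, -2.31 and -2.28 on arrays 1, 2 and 3; this gap is given as a description, without a test.

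DED1 (YOR204W) encodes a further helicase that opens the leader. Its values of -1.05, -1.48 and -0.54 were spread over the arrays but all below 0, and it fell by 1.02 ± 0.47 (SD, n = 3; limma adjusted p = 0.00528). DBP1, the paralog of DED1, was above 0 on every array, at 0.51, 0.85 and 0.68, and rose by 0.68 ± 0.17 (SD, n = 3; limma adjusted p = 0.0104). DBP1 lost its call without array 2 (0.60), where its adjusted p was 0.0901, the highest of the alternatives tried (lowest 0.00124). DED1 minus DBP1 was -1.56, -2.33 and -1.22. CAF20, which blocks the cap-binding protein from eIF4G, had -1.60 and -2.90 on arrays 2 and 3 and fell by 2.25 ± 0.92 (SD, n = 2; limma adjusted p = 0.000186). CAF20 minus CDC33 was 0.39 on array 2 and -0.63 on array 3, so the order of repressor and target changed between arrays.

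The subunits of eIF3 had no value on array 1, for any of the 6 genes, and were read on arrays 2 and 3 only. Their median over the means was -1.68. NIP1 (eIF3c) had -2.83 and -2.95 and fell by 2.89 ± 0.09 (SD, n = 2; limma adjusted p = 4.78e-06). TIF34 (eIF3i) had -1.71 and -1.89, and PRT1 (eIF3b) had -1.57 and -1.30. TIF34 fell by 1.80 ± 0.13 and PRT1 fell by 1.44 ± 0.19 (SD, n = 2; limma adjusted p = 0.000195 and 0.00096). On array 2 the high and low power scans gave -2.12 and -1.30 for TIF34, and -1.97 and -1.17 for PRT1. These scan gaps were wider than the SDs over arrays. Both array 3 values came from the high power scan alone. RPG1 (eIF3a) had a value on array 3 alone, -2.18, and TIF35 (eIF3g) on array 2 alone, -1.56. HCR1 (eIF3j), a loosely held subunit that also acts in ribosome recycling, was near 0: its values of -0.23 and 0.13 lay on both sides of 0 (mean -0.05 ± 0.26, SD, n = 2; limma adjusted p = 0.894). NIP1 minus HCR1 was -2.60 on array 2 and -3.08 on array 3.

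All 3 subunits of eIF2 were lower, with means from -2.04 to -0.68. GCD11 (YER025W), the gamma subunit that binds GTP and the initiator tRNA, had log2 ratios of -1.79, -2.04 and -2.29 and fell by 2.04 ± 0.25 (SD, n = 3), to 24.3% of the control (limma adjusted p = 7.94e-05). SUI2 (YJR007W), the alpha subunit that Gcn2 phosphorylates, had -0.48, -0.76 and -0.82 and fell by 0.68 ± 0.18 (SD, n = 3; limma adjusted p = 0.0105). GCD11 minus SUI2 was -1.32, -1.28 and -1.47, a gap that varied little between arrays (SD 0.10). SUI3, the beta subunit, had -0.79 and -1.58 on arrays 2 and 3 and fell by 1.19 ± 0.56 (SD, n = 2; limma adjusted p = 0.00535). SUI2 missed the threshold when array 2 was left out (-0.65, adjusted p = 0.0677) or array 3 (-0.62, adjusted p = 0.0593); its adjusted p was 0.000977 at the lowest of the alternatives tried.

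The subunits of the exchange factor eIF2B gave mixed values. GCN3 (YKR026C), its alpha subunit and the part that senses phosphorylated eIF2, had log2 ratios of -1.11, -1.15 and -2.27 and fell by 1.51 ± 0.66 (SD, n = 3; limma adjusted p = 0.0021). GCD1 (YOR260W), the gamma subunit, was at 0.03, 0.21 and 0.17, a mean of 0.14 ± 0.09 (SD, n = 3; limma adjusted p = 0.481; 95% confidence interval -0.24 to 0.52). It lay below the median of all tested genes. GCD7, the beta subunit, had 0.23 on array 2 and -0.59 on array 3 and did not pass (limma adjusted p = 0.627). GCN3 minus GCD1 was -1.14, -1.36 and -2.44.

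In the pathway that regulates eIF2B, GCN20, which helps Gcn1 to activate Gcn2, had -1.36, -0.82 and -1.05 and fell by 1.08 ± 0.27 (SD, n = 3; limma adjusted p = 0.00176). GCN2 itself had one value, -0.65 on array 3. GCN4, the transcription factor whose translation this pathway controls, is not a translation factor, but only 33 of the tested genes had a lower mean than its transcript: with values of -3.77, -4.03 and -3.45 it fell by 3.75 ± 0.29 (SD, n = 3; limma adjusted p = 1.02e-05). The array measures the transcript and not the translation of GCN4.

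Among the factors of start codon selection and subunit joining, TIF5 (eIF5, YPR041W) had -1.07, -1.16 and -1.26 and fell by 1.17 ± 0.10 (SD, n = 3; limma adjusted p = 0.000745). SUI1 (eIF1, YNL244C) had -0.58, -0.54 and -0.92 and fell by 0.68 ± 0.21 (SD, n = 3; limma adjusted p = 0.0115), with no call left without array 3 (-0.56, adjusted p = 0.067; range over the alternatives tried 0.00238 to 0.067). TIF11 (eIF1A) was lower still on the arrays that read it, -1.79 on array 1 and -1.99 on array 3 (limma adjusted p = 0.000135, n = 2). FUN12 (eIF5B), the GTPase that joins the subunits, had -1.04 and -0.77 on arrays 2 and 3 (limma adjusted p = 0.0147, n = 2). TIF6 (eIF6), which keeps the large subunit from joining early and acts in its assembly, had -0.43 on array 1 and -1.34 on array 3 (limma adjusted p = 0.0272, n = 2). All 5 genes were thus below 0 wherever they were measured.

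Termination and rescue factors were measured in part. SUP45 (YBR143C), the release factor eRF1 that reads stop codons, had -2.43, -2.24 and -2.63 and fell by 2.43 ± 0.20 (SD, n = 3), to 18.5% of the control (limma adjusted p = 3.38e-05). SUP35, its GTPase partner eRF3, had one value, -0.98 on array 3, which was 1.66 above that of SUP45 there. HBS1, the relative of eRF3 that works with Dom34 on stalled ribosomes, had -0.08 and -0.13 on arrays 2 and 3 and did not pass (limma adjusted p = 0.768).

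**Figure D2:**
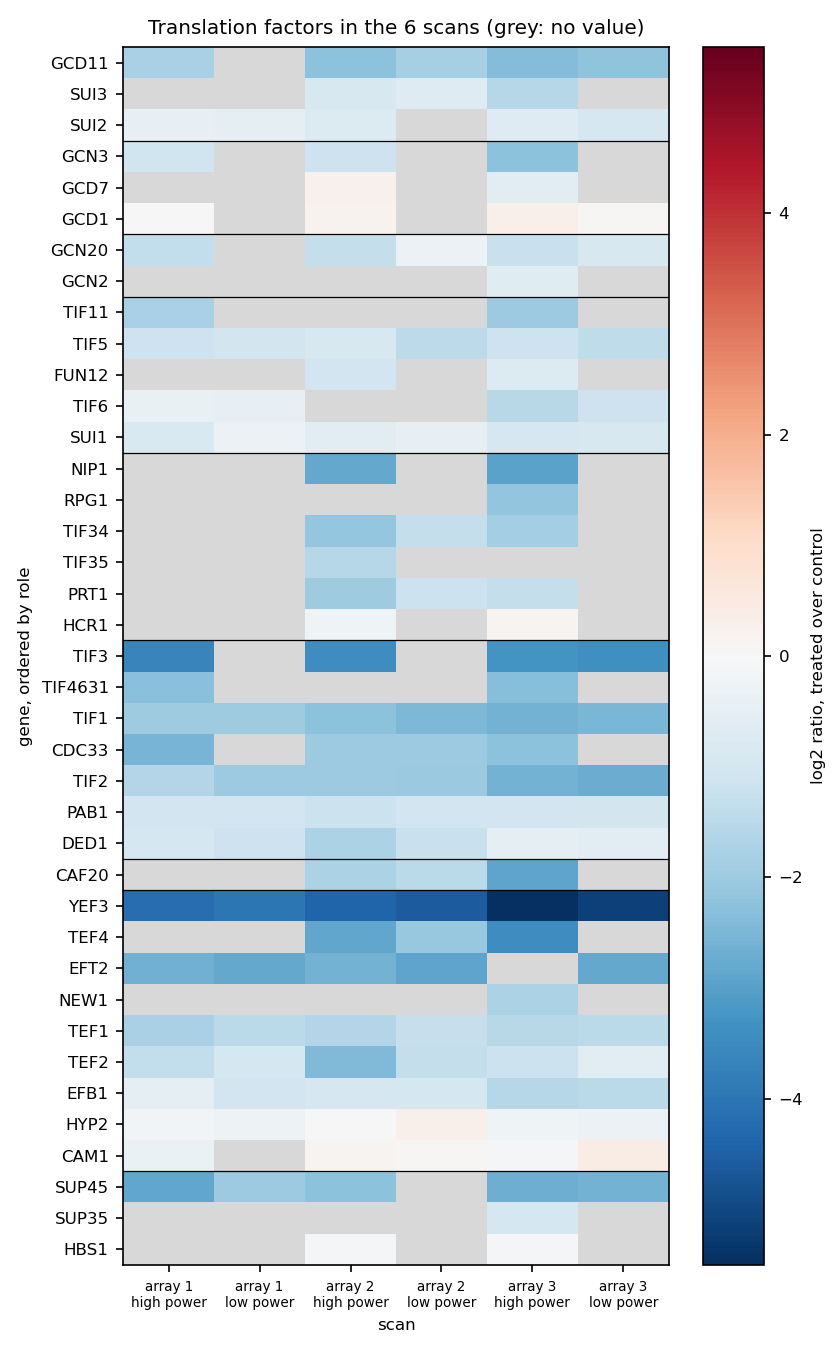
Log2 ratio of treated over control (colour) for the 39 measured translation factors (rows, ordered by role) in each of the 6 scans (columns); grey cells have no value. The 6 genes of eIF3, from NIP1 to HCR1, are grey in both scans of array 1, and YEF3 is the darkest row in all 6 scans.

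The low power scans gave a value for fewer genes than the high power scans. A low power value on all 3 arrays was present for 12 of the 44 factors (27.3%) and for 560 of 5379 genes (10.4%). The 12 were TIF1, TIF2, DED1, PAB1, SUI1, TIF5, YEF3, TEF1, TEF2, EFB1, EFT2 and HYP2 by the deposited values, and 11 of them fell, beside 29.3% of the 560 genes. Over the 55 cases in which an array gave a factor in both scans, the median absolute difference between the scans was 0.21, and it was 0.21 for all genes. A gap over 0.5 was seen in 10 of the 55 (18.2%) and in 15.1% of 3351 such cases over all genes. The widest were TEF2 on array 2 (-2.43 at high power and -1.30 at low power) and GCN20 on array 2 (-1.33 and -0.32), and 2 cases had opposite signs.

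**Figure D3:**
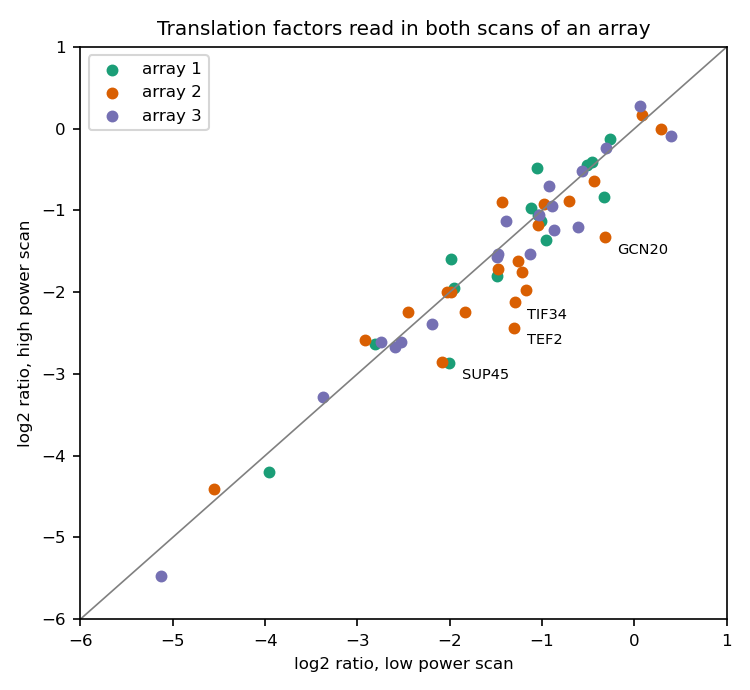
Log2 ratio of treated over control in the high power scan (vertical axis) against the low power scan (horizontal axis) of the same array, for the 55 cases in which a translation factor had both; colours mark arrays and the line marks equal values. The named points lie farthest from the line, by up to 1.13 for TEF2 on array 2.

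The median of the translation factors lay between those of all tested genes and of the ribosomal protein genes. The 68 tested cytosolic ribosomal protein genes, whose products form the ribosome itself, had a median of -3.52 and a highest value of -1.26, and all 68 fell. Of the 21 factors, YEF3 alone had a mean log2 ratio below -3.52. Cytosolic aminoacyl-tRNA synthetases, which charge tRNAs, had a median of -1.98, with 8 of 10 lower and none higher; DED81 fell by 2.67 ± 0.51, MES1 fell by 2.52 ± 0.16, ILS1 fell by 2.23 ± 0.25 and FRS2 fell by 2.04 ± 0.62 (SD, n = 3). No test of the difference between these lists was made.

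Further lists of translation genes held both lower and higher transcripts. Their counts stand beside 25.3% lower and 37.2% higher among all tested genes; no difference from those shares or from the translation factors was tested. Of 10 tested genes in a list of further cytosolic factors and paralogs, 5 fell, 2 rose and 3 did not pass, with a median of -0.86. GCN4 led it, followed by the ribosome-associated protein STM1 (-3.27 ± 0.17) and the ribosome-binding GTPases RBG2 (-1.73 ± 0.65) and RBG1 (-1.70 ± 0.59). The 2 that rose were DBP1 and MBF1, a coactivator of Gcn4 that also acts at collided ribosomes; MBF1, named after its value was seen, rose by 1.38 ± 0.34 (SD, n = 3; limma adjusted p = 0.000743). In the list of enzymes that modify translation factors, 3 of 8 fell, 1 rose and 4 did not pass (median -0.19). The methyltransferase MTQ1, which modifies the mitochondrial release factor, rose by 1.91 ± 0.45, while DYS1, NNT1 (also named EFM7, a methyltransferase of eEF1A; -1.39 ± 0.11) and DPH5, which acts in the making of diphthamide on eEF2 (-1.27 ± 0.03), fell. Of 9 mitochondrial translation factors with a probe, 1 was tested: TUF1, the mitochondrial elongation factor Tu, which fell by 1.49 ± 0.14. The 8 with a value on any array had a median of -0.17, and 4 of them were below 0.

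**Figure D4:**
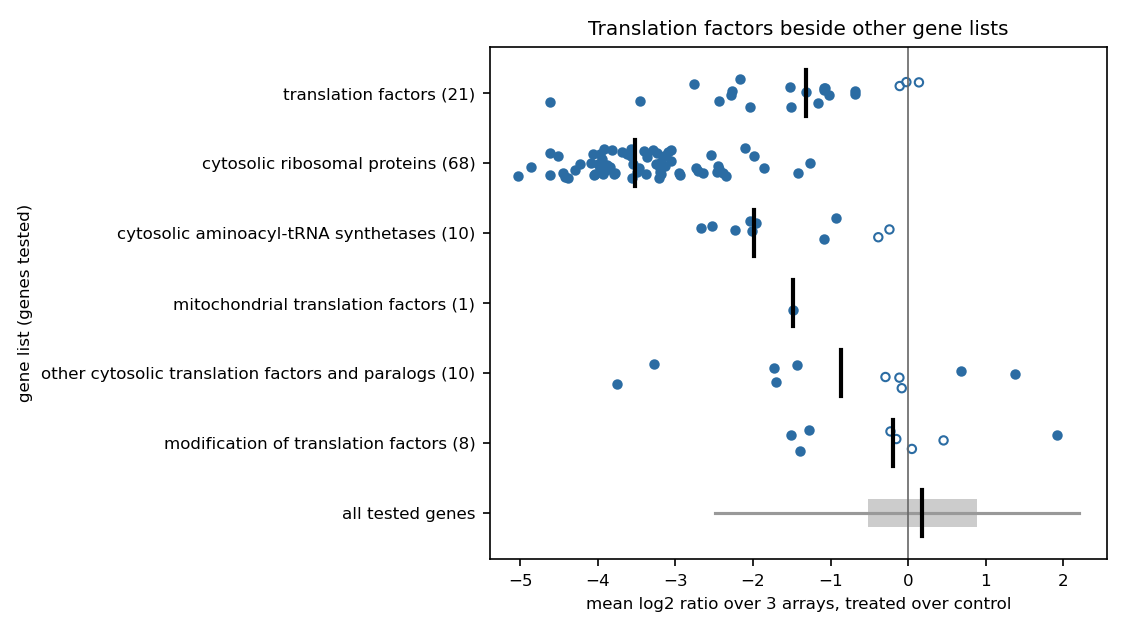
Mean log2 ratio of treated over control over 3 arrays (horizontal axis) for the tested genes of each list; filled points passed at adjusted p under 0.05, open points did not, and black ticks are medians. The bottom row shows all 2133 tested genes as the median (0.18), the middle 50% (bar) and the range from the 5th to the 95th percentile (line); the translation factors centre at -1.31 and the ribosomal protein genes at -3.52.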

How the data were processed

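Per the labels, the authors scanned each array at high and low laser power and normalised by LOWESS over spots with flag 0, and the table they deposited gives a log2 ratio for each probe in each scan. The log base was read from the values. The image software and genome build were not given in the sources used here, and no coordinates or sequences are printed. Spot intensities and flags were not used here, so signal over background is unknown and the number of arrays limits the precision. Of 6912 probes, 5446 had 1 gene symbol, none had several and 1466 had none. Symbols came from GEO's platform annotation, and all 5379 gene identifiers matched the R64 reference gene table, which supplied systematic names.

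Probes of a gene were averaged, then the scans of an array (or the one present). Against 0, limma (version 3.58.1, run in R 4.3.3; functions lmFit and eBayes) tested the mean of the 3 arrays over the 2133 genes with a value on all arrays, with Benjamini-Hochberg adjustment at 0.05. The fit had 2 residual and 4.84 prior degrees of freedom. The test was checked on simulated data. Errors are SDs over arrays. The arrays are independent biological samples per the labels.

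The members and lists were chosen with earlier results of these data known. Every member is named, and of each further list the up to 4 called genes of largest change, except the ribosomal protein list, given as a group. Planned searches of promoters and proteins were not run. Alternatives were high or low power scans alone, a fit of all 6 scans with arrays as random blocks, centred or scaled scans, 2 arrays sufficing, robust eBayes, single probes, a stricter threshold, a minimum fold, and leaving out each array.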

Additional observations from a re-analysis of the deposited data

How the results depend on the processing

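Of the 18 lower calls among the 21 tested translation factors, 18 were made with 6 scans and the array as a random block, with either centring, with scaled arrays, with robust eBayes and with single probes, and 17 of 20 with high power scans alone. The count was 11 of 12 with low power scans alone, 28 of 34 when 2 arrays sufficed, 16 at adjusted p under 0.01 and 16 with a minimum of 2-fold. It ranged from 16 to 18 without 1 array, and no factor was called higher in any of these settings. Over all genes, lower calls numbered 178 and higher calls 225 with low power scans alone (560 genes tested). Lower calls were 816 of 3307 when 2 arrays sufficed, 542 of 2116 with high power scans alone and 539 of 2135 with single probes. Of 2133 genes, 550 were lower with 6 scans, 581 with centring on all genes and 603 with centring on genes other than ribosomal protein genes. With scaled arrays 538 were lower, with robust eBayes 539, and at adjusted p under 0.01 404. At least 2-fold calls were 334 lower and 469 higher. Without 1 array the calls over all genes ranged from 455 to 541 lower and from 614 to 889 higher. Fits without 1 array rest on 2 arrays and the pooled variance. SUI2 and SUI1 missed the stricter threshold and the minimum fold. CAM1 changed sign to 0.0046 with 6 scans and to 0.14 without array 1 (range without 1 array -0.11 to 0.14), and was not called in either. Centring on genes other than ribosomal protein genes left a median of 0.075 over all tested genes, a shift of -0.11, and moved the 21 factors by -0.14 to -0.08; under it GCD1 was 0.04, CAM1 -0.14 and HYP2 -0.24, none called.

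Medians over all measured genes of a role moved most where few genes were measured. With low power scans alone, which measured fewer genes, the median was -0.72 for eIF2 (-1.19 in the report's setting), 0.061 for eIF2B (-0.18), -1.24 for eIF3 (-1.68) and -2.30 for termination and rescue (-0.98). In those scans eIF2B rests on GCD1 on array 3 alone and termination on SUP45 alone. The eIF3 value rests on PRT1 and TIF34 on array 2, both higher at low power. All 3 eIF2 genes kept a value. The eIF2B median was 0.12 without array 3 and -0.59 at its lowest without another array, so its sign is not settled. Without 1 array the medians ranged from -1.58 to -0.79 for eIF2, from -1.21 to -0.88 for start codon selection and from -1.89 to -1.57 for eIF3. They ranged from -2.35 to -2.15 for eIF4 with PAB1 and DED1, from -1.57 to -1.47 for elongation and from -1.21 to -0.98 for termination. Each ratio already sets treated against control within an array, so the test against 0 is itself the paired comparison.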
